A study of Danio rerio with 12 samples.

Results

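Retinoic acid is made from vitamin A inside the eye and acts as a local signal, and the amount that reaches its nuclear receptors is set by the enzymes that make it and those that destroy it. Retinol is oxidized to retinal and then to retinoic acid, the enzymes of the CYP26 family hydroxylate retinoic acid so that it is cleared, and small cytosolic proteins bind it on the way. In chick and mammalian eyes this signal in the retina and choroid has been linked to the control of eye growth, which is why these genes are of interest in a myopia model. The 10 genes described here were picked by their symbols in the deposited table of 37055 genes: rdh10a and dhrs3a (retinol and retinal interconversion), aldh1a2 and aldh1a3 (synthesis), cyp26a1, cyp26b1 and cyp26c1 (breakdown), and crabp1a, crabp2a and crabp2b (binding). All 10 passed the filter on low counts.

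The samples were eyeballs from 6 lrpap1 mutant (lrpap1-KO) and 6 wild-type (WT) zebrafish at 3 months. The methods speak of 12 pairs, and each pair was taken to come from a single fish. The mutants were homozygous for a CRISPR/Cas9 frameshift in lrpap1, which encodes a chaperone of LDL receptor-related proteins, and came from a single stable line. RNA of all tissues of the eye was pooled in each sample. mRNA abundance was measured by polyA RNA sequencing. The question put to the data was which steps of retinoic acid metabolism differed in mRNA level between mutant and WT eyes. No retinoic acid and no enzyme activity was measured.

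The total count was between 7996647 and 9780310 per mutant sample and between 7988538 and 9829112 per WT sample. The targeted gene, lrpap1, was lower in the mutants without being absent, with 144 to 201 counts in mutant samples and 214 to 273 counts in WT samples (log2 fold change -0.52, standard error (SE) 0.11, adjusted p = 0.0108, edgeR quasi-likelihood test with Benjamini-Hochberg adjustment). WT sample 3 stood apart: crystallin genes made up 0.132% of its TPM, against 12.4% to 20.4% in the other 11 samples, so results were also computed without it. It was also the lowest WT sample for the summed markers of stroma (1040 CPM, against 3000 to 8350 CPM in the other WT samples), blood vessel (37.6 against 63.2 to 189), skeletal muscle (578 against 723 to 1670), ganglion cells (119 against 147 to 194) and macrophages (34.7 against 45.9 to 90.8 CPM). It was the highest for photoreceptors (50300 against 33800 to 44400) and horizontal and amacrine cells (1740 against 1260 to 1490 CPM). The eye was recognizable in all samples by its photoreceptor transcripts. The 6 photoreceptor markers summed to between 31700 and 47400 CPM (counts relative to the scaled total of the sample) in mutant samples. In WT samples they summed to between 33800 and 50300 CPM. The 5 macrophage markers were all higher in the mutants (79.5 to 192 CPM in sum, against 34.7 to 90.8 CPM in WT), as were 6 of 7 interferon response genes (69.8 to 163 CPM against 10.5 to 28.4 CPM). No lens, Müller glia, photoreceptor, stroma, blood vessel, skeletal muscle or ganglion cell marker passed the test, while 1 of 6 pigment epithelium markers and 1 of 6 horizontal and amacrine cell markers were lower and 1 of 5 ocular surface markers was higher. The stroma markers still had a median log2 fold change of -0.79. They summed to 1360 to 4200 CPM in mutants and 3000 to 8350 CPM in the WT samples other than sample 3. For lens markers the median was -0.26, with 6490 to 7880 CPM against 7290 to 14800 CPM (72 CPM in WT sample 3). For ganglion cell markers the median was -0.34, with 121 to 149 CPM against 147 to 194 CPM (119 CPM in WT sample 3). For horizontal and amacrine cell markers it was -0.25, with 991 to 1390 CPM against 1260 to 1490 CPM (1740 CPM in WT sample 3). The missed threshold therefore does not show alike stroma, lens or retinal neuron content. The part of such content in the results below was not tested. Fewer cells of a type and less RNA per cell cannot be told apart in such samples.

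The 10 transcripts were present at very different levels. In TPM, transcripts relative to the total after division by gene length, rdh10a was the most abundant of the 10 genes in both genotypes, with a median of 101 TPM in mutant and 109 TPM in WT eyes, and crabp1a was next with 95.5 and 99.8 TPM. The ranges of these first 2 genes overlapped in both genotypes. cyp26a1 came next in both genotypes, with medians of 29.8 TPM in mutant and 50.8 TPM in WT eyes, and its range overlapped with that of neither neighbour in the order. In mutants, however, its lowest value (22.7 TPM) was close to the highest of aldh1a3 (22.6 TPM). Its mutant range, 22.7 to 31.8 TPM, also overlapped those of crabp2a (14.8 to 31.7), crabp2b (12.4 to 24.8) and aldh1a2 (14.6 to 23.3 TPM). In mutant sample 3 crabp2a stood above cyp26a1, at 30.5 against 29.5 TPM. Below cyp26a1 the order of medians differed. In mutant eyes it ran aldh1a3 (21.2 TPM), crabp2a (19.9), crabp2b (17.1), aldh1a2 (15.9), dhrs3a (12.8), cyp26b1 (7.19) and cyp26c1 (4.33 TPM), and neighbours overlapped except aldh1a2 and dhrs3a. In WT eyes it ran crabp2b (24.7 TPM), aldh1a3 (21.2), aldh1a2 (19.9), dhrs3a (15.9), crabp2a (10.4), cyp26c1 (9.59) and cyp26b1 (5.25 TPM), with all neighbours overlapping. So crabp2a stood above crabp2b in the mutant order and below it in the WT order, and cyp26b1 and cyp26c1 likewise changed places.

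**Figure D1:**
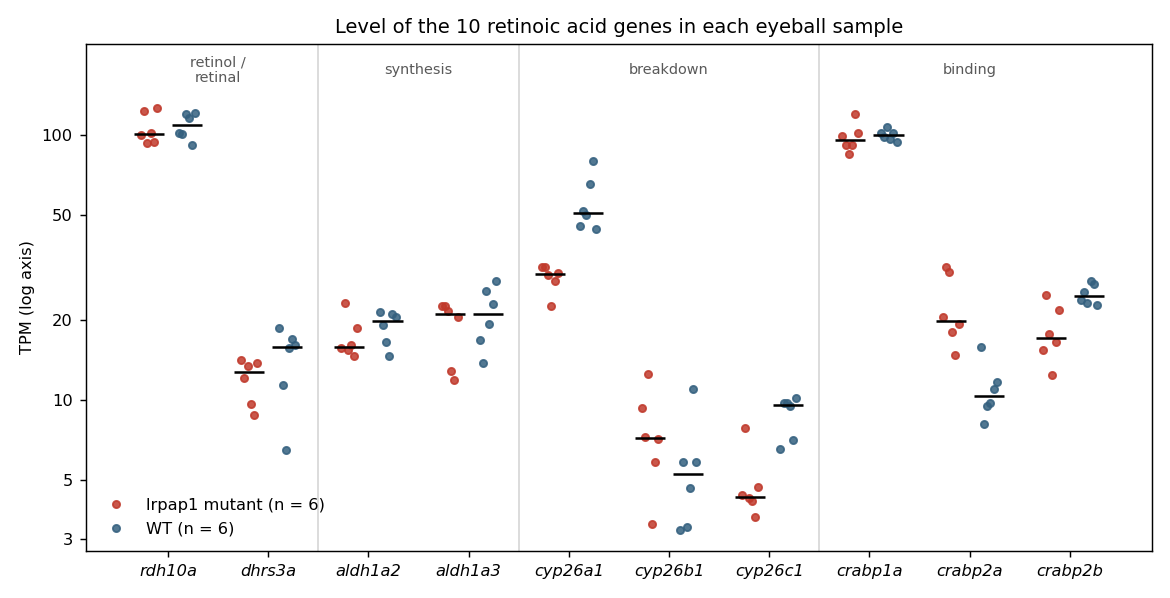
Level of each of the 10 genes in every eyeball sample in TPM on a log axis, with lrpap1 mutants in red and WT in blue (n = 6 each), and a black line at the median. The cyp26a1 points of the mutants, 22.7 to 31.8 TPM, all lie below those of WT, 44.1 to 79.7 TPM, while rdh10a and crabp1a sit higher, with medians of 95.5 to 109 TPM.

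Of the 10 genes, 4 differed between the genotypes at an adjusted p under 0.05 in edgeR's quasi-likelihood test, against 11.2% of the 18984 genes tested. In the mutants 3 fell (cyp26a1, cyp26c1 and crabp2b), against 4.27% of all genes tested, and 1 rose (crabp2a), against 6.92%. Only cyp26a1 also had an absolute log2 fold change over 1, a pair of thresholds that 4.55% of all genes tested passed, 0.874% lower and 3.68% higher in the mutants. The median log2 fold change was -0.27 over the 10 genes and -0.02 over all genes tested. The genes were chosen with earlier results of these data known. These shares and medians therefore do not show that the set as a whole changed more than other genes. cyp26a1 and crabp2b showed no overlap between the 6 mutant and the 6 WT samples, both lower in the mutants. Such a lack of overlap was found in 5.83% of all genes tested, with 2.14% lower and 3.69% higher in the mutants. The 4 calls stood without WT sample 3, and with each of the other samples left out in turn.

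**Figure D2:**
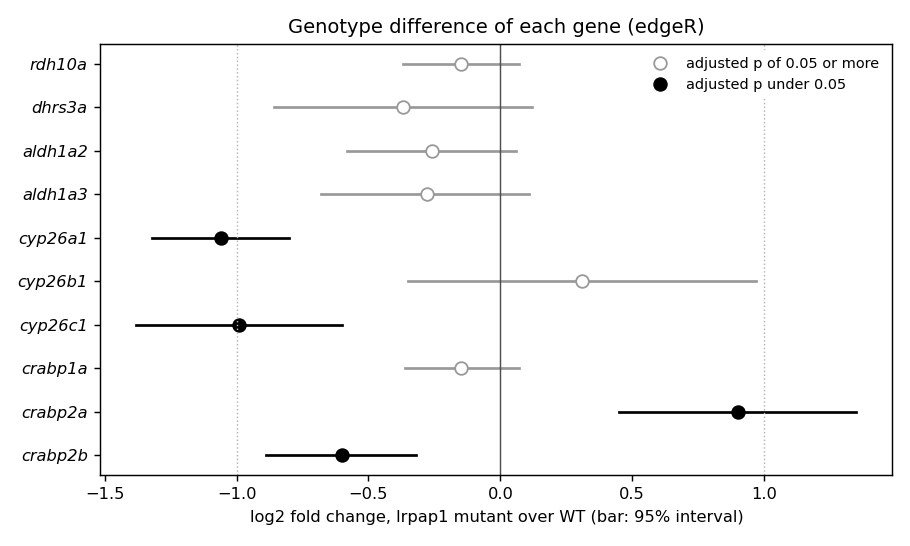
log2 fold change of each gene, lrpap1 mutant over WT, with its 95% interval (filled points: adjusted p under 0.05, edgeR, n = 6 each). cyp26a1 and cyp26c1 lie near -1, crabp2b at -0.60 and crabp2a at 0.90, and the intervals of the other 6 genes include 0.

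Among the 10 genes the largest change was in breakdown. cyp26a1 (chromosome 12, 8954761 to 8958355, GRCz11, reverse strand) encodes a retinoic acid hydroxylase whose transcription is itself induced by retinoic acid in vertebrates. It was measured at 23.1 CPM in the lowest, 27.8 CPM at the median and 30.8 CPM in the highest mutant sample, against 45.1, 56.4 and 75.1 CPM in WT. Every mutant sample was below every WT sample. The coefficient of variation was 9.37% in mutant and 19% in WT samples, a contrast that was not tested. For cyp26c1 (28.2% against 19.6%) and crabp2b (21.2% against 10.1%), which also fell, it was higher in mutants. The mean was 27.5 ± 2.57 CPM in mutant and 57.3 ± 10.9 CPM in WT eyes (SD, n = 6 each), and the log2 fold change was -1.06 (SE 0.12, adjusted p = 0.000153, edgeR), a change of -52.0% with a 95% interval of -59.9% to -42.5%. It ranked 57 by p among the 18984 genes tested. An exact two-sided permutation test of log2(CPM + 1) gave an unadjusted p = 0.00216, the smallest that 6 against 6 samples allow. Any gene without overlap between the genotypes gets this p, so it adds nothing to the lack of overlap. The log2 fold change stayed between -1.1 and -0.95 with each sample left out, and its size was just under 1 without WT sample 5 (-0.947), without mutant sample 4 (-0.995) and with limma (-0.998).

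cyp26c1 (chromosome 17, 19522856 to 19535316, reverse strand), a second retinoic acid hydroxylase, fell as well, on a much lower level. It was at 7.51, 9.31 and 15.6 CPM in the lowest, median and highest mutant sample, against 14.7, 20.3 and 25.2 CPM in WT. Of the mutant samples, 5 lay below all WT samples, and mutant sample 2 at 15.6 CPM was above WT sample 5, the lowest of WT. The log2 fold change was -0.99 (SE 0.18, adjusted p = 0.00396, edgeR). This is a change of -49.7%, with a 95% interval of -61.6% to -34.1%. Its size was over 1 without mutant sample 2 (-1.14), without WT sample 1 (-1.02) or 5 (-1.05), and with the replicate number as a block (-1.01).

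cyp26b1 (chromosome 7, 25324288 to 25348597, forward strand), the remaining gene of the family, did not pass the test and had the highest coefficient of variation of the 10 genes, 40.0% in mutant and 45.7% in WT samples. Its values were 6.33, 12.0 and 21.2 CPM in mutant and 5.92, 9.41 and 18.8 CPM in WT samples (lowest, median and highest). The highest sample was 3.36 times the lowest among mutants and 3.17 times among WT, and 5 of 6 mutants lay above the WT median although the ranges overlapped widely. The log2 fold change was 0.31 (SE 0.31, adjusted p = 0.556, edgeR), and its 95% interval, -21.4% to 95.9%, includes changes in either direction.

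The make-up of the family can be set beside these levels. The summed TPM of the 3 cyp26 genes was 30.3 to 47.0 in mutant and 55.3 to 97.8 in WT samples, without overlap. cyp26a1 made up 70.5% ± 4.29 of that sum in mutant and 79.2% ± 3.59 in WT eyes (SD, n = 6 each), with overlapping ranges. cyp26b1 made up 11.3% to 27.0% in mutant and 5.28% to 11.2% in WT samples. These ranges did not overlap but nearly met, and cyp26b1 itself did not pass the test. cyp26c1 made up 11.7% ± 2.99 and 13.0% ± 3.45, also with overlapping ranges. These shares come from the same counts as the fold changes above and were not tested.

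The binding proteins divided. crabp2a (chromosome 16, 14383479 to 14396984, reverse strand) and crabp2b (chromosome 19, 8973042 to 8980033, forward strand) are a zebrafish pair related to one mammalian gene, CRABP2, whose protein in mammals carries retinoic acid to its nuclear receptor. crabp2a was measured at 19.2, 26.3 and 39.2 CPM in the lowest, median and highest mutant sample, against 12.7, 13.6 and 25.0 CPM in WT. In the mutants 4 samples lay above all WT samples, and the overlap came from WT sample 1, since the other 5 WT samples were at 12.7 to 16.4 CPM. crabp2a rose by a log2 fold change of 0.90 (SE 0.21, adjusted p = 0.0142, edgeR), a change of 86.6% with a 95% interval of 37.0% to 154%. Without WT sample 1 the log2 fold change was 1.1 and without mutant sample 5 it was 1.02, and with the replicate number as a block the adjusted p was 0.0455. The macrophage and interferon markers were higher in the same genotype, and their part in this result was not tested.

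crabp2b moved the other way. It was at 19, 24.3 and 33.7 CPM in mutant samples and at 34.3, 39.6 and 45.0 CPM in WT samples (lowest, median and highest), with every mutant sample below every WT sample, though the highest mutant and the lowest WT sample were close. Means were 25.7 ± 5.45 CPM and 39.2 ± 3.96 CPM (SD, n = 6 each), a log2 fold change of -0.60 (SE 0.13, adjusted p = 0.0103, edgeR), a change of -34.2% with a 95% interval of -0.89 to -0.32 on the log2 scale. Taken within each sample, the ratio of crabp2a to crabp2b TPM was 0.884 to 1.72 in mutant and 0.319 to 0.664 in WT samples. So crabp2a exceeded crabp2b in 4 of the mutant samples and in no WT sample. This ratio was not tested apart from its genes. How reads shared by related copies were assigned is not given in the sources used here.

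**Figure D3:**
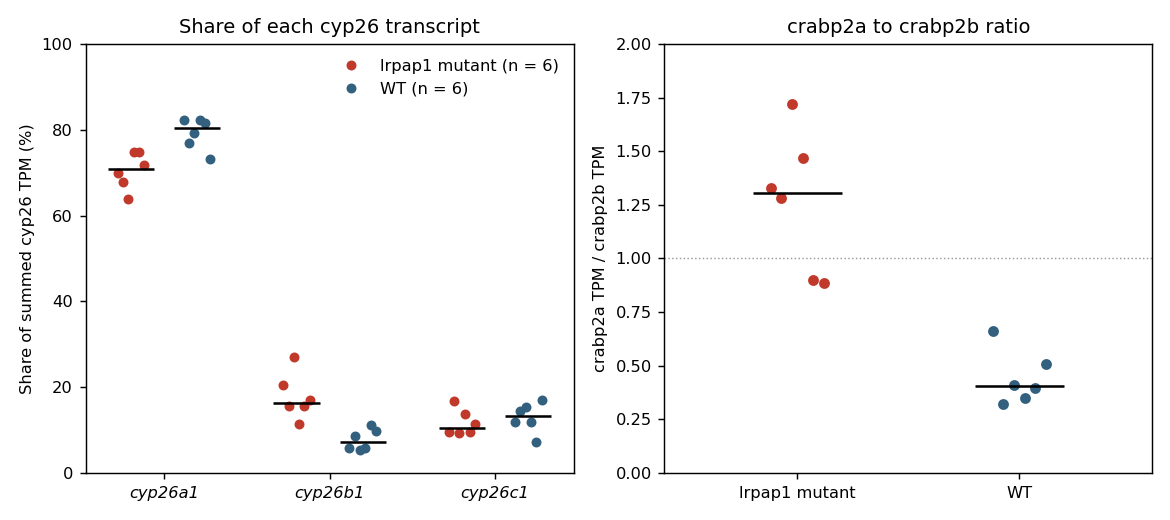
Left, share of each cyp26 transcript in the summed TPM of cyp26a1, cyp26b1 and cyp26c1 (percent). Right, TPM of crabp2a divided by that of crabp2b. Points are single samples, lrpap1 mutants in red and WT in blue (n = 6 each), and lines are medians. The cyp26b1 share (median 16.3% in mutants and 7.29% in WT) and the crabp2a to crabp2b ratio (median 1.31 and 0.403) do not overlap between genotypes. For the cyp26b1 share the lowest mutant (11.3%) and the highest WT sample (11.2%) nearly meet.

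crabp1a (chromosome 25, 6306955 to 6337380, forward strand), related to the mammalian CRABP1 that has been linked to the breakdown of retinoic acid, did not pass the test. It was at 31.2, 37.1 and 44.6 CPM in mutant and 36.0, 39.5 and 46.1 CPM in WT samples (lowest, median and highest), and 4 of 6 mutants lay inside the WT range. The log2 fold change was -0.15 (SE 0.10, adjusted p = 0.376, edgeR), with a 95% interval of -22.3% to 4.98%. The summed TPM of the 3 binding protein genes, 139 ± 10.8 in mutant and 136 ± 5.10 in WT eyes (SD, n = 6 each), overlapped between genotypes. TPM is not scaled as CPM is, and here mutant values stood higher relative to WT in TPM than in CPM. The crabp1a means were 98.1 TPM in mutant and 99.8 TPM in WT eyes, but 36.7 and 40.7 CPM. The 2 sums therefore cannot be set directly against the fold changes.

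Neither synthesis gene passed the test. aldh1a2 (chromosome 7, 30327056 to 30367514, reverse strand) and aldh1a3 (chromosome 7, 9721702 to 9803108, reverse strand) encode the dehydrogenases that turn retinal into retinoic acid, the first in the dorsal and the second in the ventral retina of the zebrafish embryo. aldh1a2 was at 17.0, 19.4 and 25.7 CPM in mutant and 17.0, 25.1 and 30.1 CPM in WT samples (lowest, median and highest). For aldh1a3 the corresponding values were 11.6, 20.5 and 22.7 CPM in mutant and 16.7, 21.2 and 29.7 CPM in WT samples. Both overlapped widely between genotypes, although 5 of 6 mutants lay below the WT median for each. The log2 fold changes were -0.26 for aldh1a2 (SE 0.15, adjusted p = 0.275, edgeR) and -0.28 for aldh1a3 (SE 0.18, adjusted p = 0.342, edgeR). Their 95% intervals, -32.9% to 3.93% and -37.4% to 7.81%, include no change as well as a decrease, so the missed threshold does not show that the levels were alike. In mutant samples the summed cyp26 TPM was 1.02 to 1.41 times the summed TPM of aldh1a2 and aldh1a3, against 1.24 to 2.34 times in WT samples, and these ranges overlapped.

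The pair of genes at the entry to the pathway did not pass either. rdh10a (chromosome 24, 13251480 to 13272843, reverse strand) encodes a dehydrogenase that forms retinal from retinol. It was at 113, 129 and 151 CPM in mutant and 111, 151 and 159 CPM in WT samples (lowest, median and highest), and all 6 mutants lay below the WT median, while WT sample 5 was the lowest of all 12 samples. The log2 fold change was -0.15 (SE 0.10, adjusted p = 0.367, edgeR), with a 95% interval of -22.7% to 4.86%.

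dhrs3a (chromosome 23, 21663742 to 21674679, forward strand) encodes the reductase that returns retinal to retinol, and its transcription is also known to respond to retinoic acid. It was at 7.28, 10.3 and 12.1 CPM in mutant and 5.58, 13.6 and 18.9 CPM in WT samples (lowest, median and highest). All 6 mutants lay below the WT median, but the lowest value of all belonged to WT sample 3, the sample short of lens transcripts. The log2 fold change was -0.37 (SE 0.23, adjusted p = 0.315, edgeR), with a 95% interval of -45.0% to 8.41%. Without WT sample 3 it was -0.51, with an adjusted p of 0.0648 in the same edgeR test.

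Other genes of the pathway were taken from lists of transport genes, related enzymes, receptors and regulators. Of the 71 such genes tested, 4 rose and 7 fell in the mutants at an adjusted p under 0.05 (edgeR), 11 of 71 in all, against 11.2% of all genes tested (6.92% higher and 4.27% lower). Their median log2 fold change was -0.04, and the counts of each list stand against the same shares. Of these genes, rdh10b, adh5, tgm2b, ncor1 and nr2f2 showed no overlap between the genotypes, against 5.83% of all genes tested. Among genes for retinol uptake, storage and carotenoid cleavage, 1 of 15 rose, none fell, and the median was -0.13. It was rbp7a, a cellular retinol binding protein, at 2.5, 4.70 and 8.26 CPM in mutant and 0.936, 1.54 and 2.77 CPM in WT samples (log2 fold change 1.56, SE 0.35, adjusted p = 0.0122, edgeR). Its counts were low, 22 to 78 in mutant and 9 to 22 in WT samples, and the CPM ranges overlapped. stra6, the retinol uptake receptor of the pigment epithelium, had a log2 fold change of 0.00 (SE 0.13, adjusted p = 0.994, edgeR).

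Of 15 related enzymes, 2 fell, none rose, and the median was 0.02. rdh10b, the second zebrafish copy of the retinol dehydrogenase, was at 8.67, 9.51 and 10.7 CPM in mutant and 13.8, 14.8 and 18.6 CPM in WT samples, without overlap. Its log2 fold change was -0.67 (SE 0.11, adjusted p = 0.00196, edgeR). The alcohol dehydrogenase gene adh5, better known for the removal of formaldehyde, fell by 0.45 on the log2 scale (SE 0.08, adjusted p = 0.00451, edgeR), also without overlap. dhrs3b, the second copy of dhrs3, had a log2 fold change of -0.03 (adjusted p = 0.955, edgeR), and crabp1b had at most 7 counts in any mutant and 4 in any WT sample and was not tested.

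Of 9 retinoic acid and retinoid X receptor genes tested, 1 fell, none rose, and the median log2 fold change was -0.04. The receptor genes raraa, rarab and rarga had log2 fold changes of -0.04, -0.10 and 0.16, and none of the 3 passed (adjusted p = 0.823, 0.536 and 0.671, edgeR). rxrgb was the exception (log2 fold change -0.65, SE 0.19, adjusted p = 0.0412, edgeR), and 8 of the 12 fits without one sample lost this call, the fit without WT sample 3 among them (adjusted p = 0.0827).

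Of 17 receptor partners and genes known to be induced by retinoic acid or to belong to the COUP-TF receptor family, 3 rose and 2 fell, and the median was 0.01. tgm2b, one of the zebrafish genes for transglutaminase 2, an enzyme induced by retinoic acid in mammalian cells and made by macrophages among others, was at 39.8, 65.0 and 77.2 CPM in mutant and 3.57, 12.4 and 28.8 CPM in WT samples, without overlap. Its log2 fold change of 2.03 (SE 0.36, adjusted p = 0.00347, edgeR) was the highest in these lists. tgm2l, of the same family, fell by 1.70 on the log2 scale (SE 0.52, adjusted p = 0.0494, edgeR) on at most 27 counts in any mutant sample, and 9 of the 12 fits without one sample lost this call. The corepressor ncor1 rose by 0.37 (adjusted p = 0.00694, edgeR) and nr2f6b by 0.77 (adjusted p = 0.0181, edgeR) on the log2 scale, while nr2f2 fell by 0.53 (adjusted p = 0.00459, edgeR). The macrophage markers were higher in the mutants too, and their part in this result was not tested.

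Of 15 genes listed as regulators of regions of the retina, 2 fell, none rose, and the median was -0.29. Not all of them are dorsal or ventral genes (foxd1, foxg1a and nr2e1 are not), so these values do not describe a dorsal and ventral set alone. vax1, a ventral homeobox gene, and tbx2b, a dorsal T-box gene, fell by 0.70 and 0.30 on the log2 scale (adjusted p = 0.0303 and 0.0316, edgeR). Of the 12 fits without one sample, 6 lost the call for vax1 and 8 that for tbx2b, the fit without WT sample 3 among them (adjusted p = 0.0621 and 0.0658, edgeR).

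**Figure D4:**
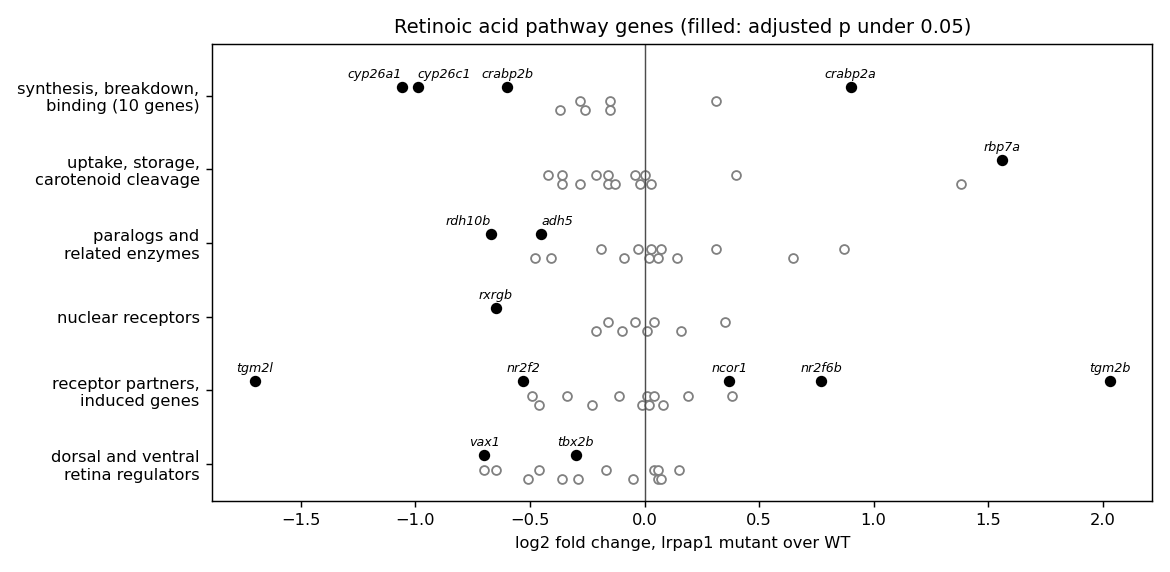
log2 fold change, lrpap1 mutant over WT, of the 10 genes and of the tested genes of 5 further lists (edgeR, n = 6 each), with filled and named points for an adjusted p under 0.05. Most open points lie between -0.5 and 0.5, cyp26a1 and cyp26c1 lie near -1, and tgm2b at 2.03 and rbp7a at 1.56 are the highest.

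No correlation between 2 of the 10 genes within a genotype passed correction, but 6 samples could hardly let one pass. Of 90 correlations of log2(CPM + 1) between 2 of the genes, each over the 6 samples of a genotype, 6 had an unadjusted p under 0.05 in exact two-sided permutation tests, and none had an adjusted p under 0.05. Chance alone gives about 1 in 20 under the unadjusted limit. With 720 pairings of 6 samples, a single pair could not reach an adjusted p under 0.05 on its own. The result therefore does not show that the genes varied apart from each other. The smallest p was that of aldh1a2 and cyp26c1 in mutants (Pearson r = 0.945, exact permutation p = 0.00278, adjusted p = 0.25, Spearman rho = 0.943, exact permutation p = 0.0167, n = 6). Without the 2 mutant samples farthest from the median of aldh1a2, r was 0.891. In WT the same pair had r = -0.0552 (exact permutation p = 0.919) and rho = 0.143 (exact permutation p = 0.803, n = 6).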

How the data were processed

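The authors aligned polyA RNA reads (Illumina HiSeq2500) to GRCz11 with HISAT2 2.1.0 and deposited unnormalized gene counts for each sample, and TPM values, which were checked to equal count over listed length, rescaled (largest deviation 5e-06). The counting program and its use of strand are not given in the sources used here. The main test on counts was that of edgeR 4.0.16 under R 4.3.3 (filterByExpr, TMM, glmQLFit, glmQLFTest, genotype as the only term), with Benjamini-Hochberg adjustment over 18984 genes. Standard errors came from the F statistic and 95% intervals from the t distribution. CPM is relative to the TMM-scaled total, and exact permutation tests enumerated 924 assignments. Alternatives were DESeq2 1.42.0, limma 3.58.1, other scalings and filters, a replicate block and leaving out each sample. The genes and lists (5 of the pathway, 12 of cell type markers) were chosen with earlier results of these data known. All 10 genes are named, with lrpap1 and each listed gene that had an adjusted p under 0.05 or was needed to state a count, and, for each of the 10 genes with such a p, the 3 most correlated genes. stra6, dhrs3b, crabp1b, raraa, rarab and rarga were named after their values were seen. Of 86 pathway symbols 4 were not matched. Old symbols were matched by NCBI gene number through a GRCz12tu table. No 2 samples were the same library (chi-square at least 7.02 per degree of freedom). Each sample was taken to be a different fish, so p-values set the genotype difference against the spread between fish within these groups. The mutants came from a single line, and whether the sequenced WT fish were their siblings is not given in the sources used here. Genotype therefore cannot be told apart from line or clutch. No sequences were used here. The tests were checked on simulated counts. The planted changes were larger than those of the 10 genes, so changes of their size were not checked.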

Additional observations from a re-analysis of the deposited data

Results flagged for a closer look

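Single samples that stood apart within a genotype were looked for with Dixon's test, whose ratio divides the distance between the extreme sample and its neighbour by the spread of all 6. In 7 of 70 sets of values the ratio was above the 95% limit. Chance alone gives about 1 in 20 sets, or 3.5 of the 70. cyp26c1 was at 15.6 CPM in mutant sample 2, against 7.51 to 9.66 CPM in the other mutants (ratio 0.734). rdh10a was at 111 CPM in WT sample 5, against 142 to 159 CPM in the other WT samples (ratio 0.642). crabp2a was at 25.0 CPM in WT sample 1, against 12.7 to 16.4 CPM (ratio 0.699), and the total count of that sample was 7988538, against 9142860 to 9829112 (ratio 0.627). WT sample 3 was high for rdh10b (18.6 CPM, against 13.8 to 15.2, ratio 0.694), for rxrgb (15.3 CPM, against 8.98 to 11.1, ratio 0.672) and for nr2f6b (66.7 CPM, against 26 to 38.7, ratio 0.687).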

How the results depend on the processing

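All 10 genes and lrpap1 kept their direction and their side of an adjusted p of 0.05 under the 8 alternatives of tool, scaling, filter and block and the 12 fits without one sample. Over the latter the log2 fold change ranged from -1.1 to -0.95 for cyp26a1, from -1.14 to -0.90 for cyp26c1, from -0.68 to -0.51 for crabp2b and from 0.82 to 1.1 for crabp2a. The number of genes past both thresholds, 864 in the edgeR test, was 1528 with DESeq2 and 464 with at least 10 counts in every sample, and 686 to 1160 with one sample left out. At an adjusted p under 0.05 alone, 2124 genes were called, 3382 with DESeq2, 1202 with the replicate block and 1437 to 2720 with one sample left out. Of the pathway lists 11 genes were called, 16 with DESeq2, 15 with limma, 7 with the replicate block and 7 to 11 with one sample left out, the lowest without mutant sample 1, mutant sample 3 or WT sample 6. Same-numbered samples did not deviate together (r = -0.302 to 0.109), so the replicate number was not taken to pair them. The cause of these differences was not tested.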

Other observations

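For each of the 4 genes with an adjusted p under 0.05, the 3 genes with the most similar pattern between samples were found. The measure was Pearson's r of log2(CPM + 1) after the mean of each genotype was taken off, over 12 samples. They were the highest of all genes tested, so r is a description and carries no p. cyp26a1 was followed by LOC110440170 (r = 0.912), rai14 (r = 0.911), whose name means retinoic acid induced 14, and reep1 (r = 0.901). cyp26c1 was followed by mycb (r = 0.908), zgc:161969 (r = 0.873) and trnL2 (r = 0.865). crabp2a was followed by hcls1 (r = 0.910), a gene of blood cells, LOC100536819 (r = 0.894) and slc10a3 (r = 0.894), and crabp2b by nde1 (r = 0.899), dnajc4 (r = 0.872) and pxmp2 (r = 0.856). Of these genes, LOC100536819 alone differed between genotypes (log2 fold change 1.38, adjusted p = 0.00774, edgeR). Without WT sample 3 reep1 had the highest r with cyp26a1 (r = 0.942), and rai14 was in place 4 (r = 0.91). In the same samples mycb and nde1 kept the first place for cyp26c1 and crabp2b. For crabp2a, hcls1 was then in place 5 and LOC100536819 in place 10.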
